A study of Homo sapiens with 8 samples.

Results

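The 10 genes described here encode the chaperones and ATP-dependent proteases that fold, refold and degrade proteins inside mitochondria: HSPD1, HSPE1, HSPA9, TRAP1, DNAJA3, LONP1, CLPP, CLPX, YME1L1 and AFG3L2. They were taken by symbol, as a named family, from 25558 gene symbols in the tables, with earlier results of these data known. All 10 were found, and all 10 exceeded the mean of 1 FPKM (fragments per kilobase of transcript, scaled to the mapped fragments of the library) that a gene needed to enter a comparison. The cells were H1, an established line of human embryonic stem cells, and their total RNA gave 8 libraries, 1 per group. The groups were shEXOSC3 cells with doxycycline, shEXOSC3 cells without it, shNS cells with doxycycline and shNS cells without it, each on day 5 and on day 7. shEXOSC3 is an inducible short hairpin RNA against EXOSC3, a core subunit of the RNA exosome, and shNS is a non-silencing hairpin. Every group was kept feeder-free on Matrigel in medium with puromycin and at low oxygen, per the labels. Whether each line is 1 clone, and which promoter drives the hairpin, was not given in the sources used here. Doxycycline is a tetracycline, a class that also binds mitochondrial ribosomes, and it was given to both lines, so within 1 line its own action and that of the hairpin it induces cannot be told apart.

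Proteins enter the mitochondrial matrix unfolded and are pulled in and folded by HSPA9, the matrix Hsp70, with its J-domain partner DNAJA3. The chaperonin barrel built from HSPD1 and its lid HSPE1 encloses a folding protein, and TRAP1 is the matrix member of the Hsp90 family. LONP1 and the CLPX-CLPP pair degrade misfolded or surplus matrix proteins, while YME1L1 and AFG3L2 are inner membrane proteases that face the intermembrane space and the matrix. In mammalian cells several of these genes, HSPD1, HSPE1, LONP1 and CLPP among them, are textbook targets of the mitochondrial unfolded protein response, in which the transcription factors ATF5, ATF4 and DDIT3 take part.

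HSPD1 and HSPE1 lie head to head on chromosome 2 and share a promoter, so their sequence is shown first. Promoter windows run from 250 bases before a start to 50 after it, were taken from RefSeq on build GRCh38.p14, and were found for 8 of the 10 genes. The HSPE1 window is chr2:197500129-197500428 on the plus strand, and its start lies 105 bases from the first HSPD1 start. Capitals mark the 204 bases that also fall in the window of that HSPD1 start, which is read from the other strand.
HSPE1: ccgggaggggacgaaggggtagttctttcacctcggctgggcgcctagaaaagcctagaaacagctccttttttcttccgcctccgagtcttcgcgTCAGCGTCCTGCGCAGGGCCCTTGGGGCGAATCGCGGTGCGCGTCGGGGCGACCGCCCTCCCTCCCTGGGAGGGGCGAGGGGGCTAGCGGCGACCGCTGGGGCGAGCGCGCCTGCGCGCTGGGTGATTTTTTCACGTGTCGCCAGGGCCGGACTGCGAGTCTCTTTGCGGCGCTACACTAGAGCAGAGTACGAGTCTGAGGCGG
A second HSPD1 start has the window chr2:197499791-197500090 on the minus strand. Capitals mark a run of 18 bases made of heat shock element cores.
HSPD1: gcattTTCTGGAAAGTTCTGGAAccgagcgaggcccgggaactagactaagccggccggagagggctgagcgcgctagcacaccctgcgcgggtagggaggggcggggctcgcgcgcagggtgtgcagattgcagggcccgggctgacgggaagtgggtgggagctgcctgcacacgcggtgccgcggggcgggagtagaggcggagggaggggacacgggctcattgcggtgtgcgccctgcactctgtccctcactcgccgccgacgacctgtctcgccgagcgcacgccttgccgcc
Both spacings of the core were searched on both strands. GAANNTTC was in the windows of 8.21% of all genes and, of the 8 members, in that of HSPD1. TTCNNGAA was in the windows of 9.46% of all genes and in those of HSPD1 and HSPA9. The HSPA9 match spans its transcription start, within chr5:138575387-138575416 on the minus strand.
HSPA9: tggttggaggtTTCCAGAAgcgctgccgcc
The letters GCATGCGC, the core of the NRF1 motif, were in the windows of 3.68% of all genes and in those of DNAJA3 and LONP1. TGATGCAA, the core of the C/EBP-ATF element through which ATF4 and DDIT3 act, was in the windows of 1.08% of all genes and in 0 of 8 member windows. The motifs were chosen after the windows had been seen, and a match is a description of the letters only.

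EXOSC3, the gene targeted by the hairpin, had 11.3 FPKM with doxycycline and 25.2 FPKM without it in shEXOSC3 cells on day 5, and 12.3 and 25.2 FPKM on day 7. In shNS cells it had 27.8 FPKM with doxycycline and 27.3 FPKM without it on day 5, and 27.4 and 30.3 FPKM on day 7. The targeted gene was thus lower in the libraries labelled as its knockdown. Of 12 pluripotency markers 11 were in the tables, all above 1 FPKM, with a sum of 2084 to 3502 FPKM per library. None of the definitive endoderm, mesoderm or neuroectoderm markers (0 of 6 in each list) reached a mean of 1 FPKM, and 1 of 6 trophectoderm markers did, KRT7. Of 8 stromal markers 5 did, with a sum of 99.2 to 227 FPKM, while LUM and DCN were listed at 0. The stromal sum in shEXOSC3 cells on day 5 was 138 FPKM with doxycycline and 100.3 FPKM without it, of which THY1, a surface protein that pluripotent cells also carry, gave 107 and 82.0 FPKM. The part of these markers in the results was not tested. The spacing of low FPKM gave a relative depth, doxycycline over untreated, of 1.01 on day 5 and 0.920 on day 7 for shEXOSC3, and of 1.59 and 1.34 for shNS. Absolute depth is unknown, and with 1 library per group no difference below has a replicate check or a p-value of its own.

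HSPD1, the chaperonin subunit, gave the widest difference among the members. On day 5 it had 255 FPKM with doxycycline and 269.5 FPKM without it in shEXOSC3 cells, and 314 and 337 FPKM in shNS cells. On day 7 it had 239 FPKM with doxycycline and 350.4 FPKM without it in shEXOSC3 cells. The doxycycline library was thus the lower of each pair, by 5.41% on day 5 and 31.8% on day 7 in shEXOSC3 cells. The shNS table of day 7 lists 279 FPKM with doxycycline and 334 FPKM without it, but marks the estimate of that locus as failed. It was not used, so whether the day 7 difference is larger in shEXOSC3 cells than in shNS cells could not be given. Fewer cells of a type and less RNA per cell cannot be told apart in such bulk libraries, here and below.

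HSPE1, the lid of the chaperonin, had 107 FPKM with doxycycline and 136 FPKM without it in shEXOSC3 cells on day 5, and 209.7 and 263 FPKM on day 7. In shNS cells it had 122 FPKM with doxycycline and 132 FPKM without it on day 5. The failed day 7 estimate lists 195 FPKM with doxycycline and 265 FPKM without it. The shEXOSC3 library with doxycycline stood at 78.5% of its untreated partner on day 5 and at 79.6% on day 7, against 92.6% in shNS on day 5. HSPE1 and HSPD1 share 1 locus of 8 transcripts with MOB4 and the readthrough HSPE1-MOB4 on hg19 (chr2:198351308-198418423), and all 8 failed together in the shNS table of day 7. Both genes also have processed pseudogenes, so reads may be divided among copies and their levels are uncertain to that extent.

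HSPA9, the matrix Hsp70 (hg19 chr5:137890571-137911318), had 231 FPKM with doxycycline and 214 FPKM without it in shEXOSC3 cells on day 5, and 255 and 211 FPKM in shNS cells. On day 7 it had 323 FPKM with doxycycline and 365 FPKM without it in shEXOSC3 cells, and 347 and 353 FPKM in shNS cells. HSPA9 was therefore higher with doxycycline on day 5 and lower on day 7, in both lines. DNAJA3, its J-domain partner (chr16:4475806-4506775), had 31.3 FPKM with doxycycline and 31.0 FPKM without it in shEXOSC3 cells on day 5, and 16.8 and 17.7 FPKM on day 7. In shNS cells DNAJA3 had 32.3 and 32.0 FPKM on day 5, and 17.0 and 17.5 FPKM on day 7, with doxycycline and without it. It was the member that differed least, with every doxycycline library between 94.4% and 100.8% of its partner. TRAP1, the matrix Hsp90 (chr16:3702940-3767598), had 84.3 FPKM with doxycycline and 93.6 FPKM without it in shEXOSC3 cells on day 5, and 62.8 and 66.5 FPKM on day 7. In shNS cells TRAP1 had 77.7 and 88.2 FPKM on day 5, and 58.2 and 66.3 FPKM on day 7, with doxycycline and without it. It was lower with doxycycline in all 4 tables, and on day 7 the shNS library stood lower against its partner, at 87.7%, than the shEXOSC3 library, at 94.4%.

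**Figure D1:**
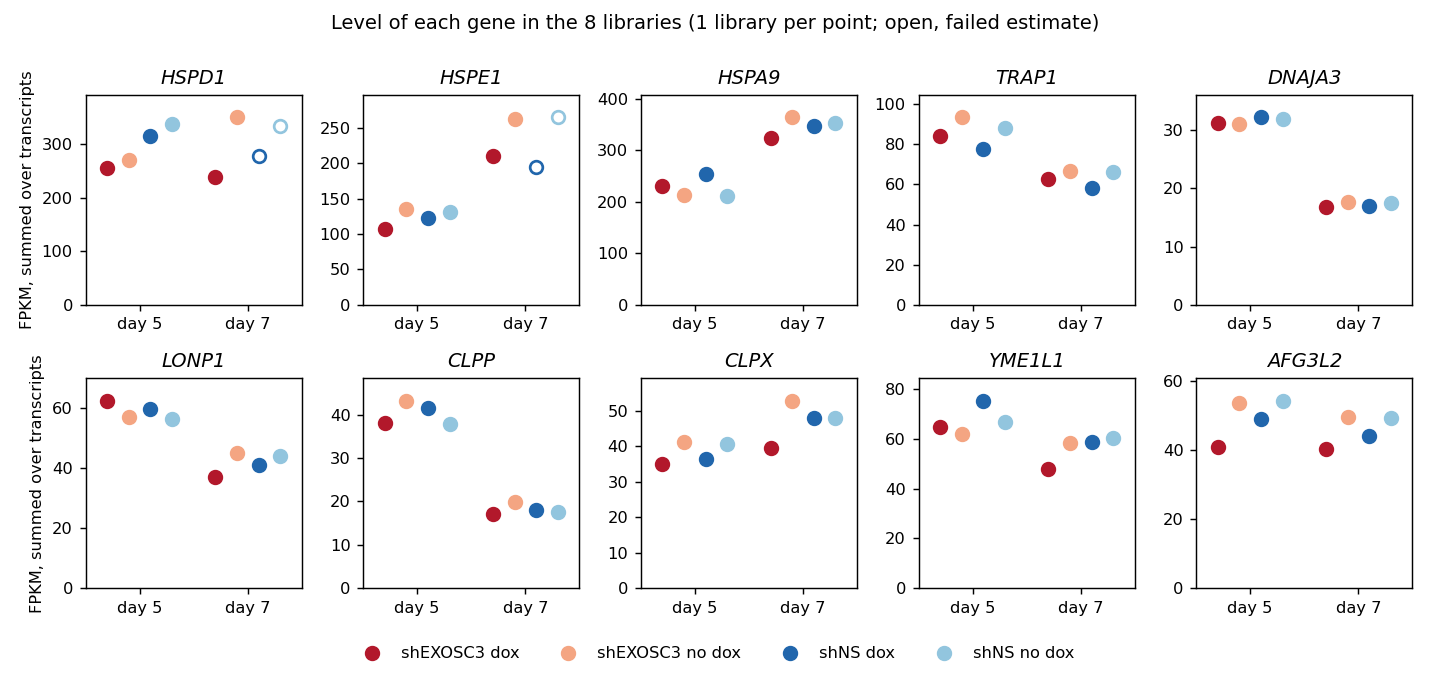
Level of each of the 10 genes in FPKM, summed over transcripts, on day 5 and day 7 (1 point per library, colours give the line and doxycycline, open points are failed estimates). CLPP and DNAJA3 sit lower on day 7 in every library. For every gene but HSPE1 and TRAP1, the lowest point of day 7 is the shEXOSC3 library with doxycycline. For HSPE1 and TRAP1 it is the shNS library with doxycycline, a failed estimate for HSPE1.

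Among the proteases, LONP1, the soluble ATP-dependent protease of the matrix (hg19 chr19:5691845-5720463), had 62.4 FPKM with doxycycline and 56.9 FPKM without it in shEXOSC3 cells on day 5, and 59.8 and 56.2 FPKM in shNS cells. On day 7 LONP1 had 37.1 FPKM with doxycycline and 45.0 FPKM without it in shEXOSC3 cells, and 41.1 and 44.1 FPKM in shNS cells. Like HSPA9, it was higher with doxycycline on day 5 and lower on day 7 in both lines. CLPX, the unfoldase of the CLPX-CLPP protease (chr15:65442784-65477563), had 35.0 FPKM with doxycycline and 41.3 FPKM without it in shEXOSC3 cells on day 5, and 36.3 and 40.7 FPKM in shNS cells. On day 7 CLPX had 39.5 FPKM with doxycycline and 52.8 FPKM without it in shEXOSC3 cells, while the shNS libraries had 48.0 FPKM each. CLPX thus stood at 74.9% of its partner in shEXOSC3 and at 99.9% in shNS on day 7. CLPP, the proteolytic chamber of that pair (chr19:6361463-6368915), had 38.0 FPKM with doxycycline and 43.2 FPKM without it in shEXOSC3 cells on day 5, and 17.2 and 19.8 FPKM on day 7. In shNS cells CLPP had 41.5 and 37.9 FPKM on day 5, and 17.97 and 17.47 FPKM on day 7, with doxycycline and without it. CLPP was the member that was lower with doxycycline on both days in shEXOSC3 and higher on both days in shNS.

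The inner membrane proteases differed from each other on day 5. YME1L1 (hg19 chr10:27399040-27443349) had 64.5 FPKM with doxycycline and 61.9 FPKM without it in shEXOSC3 cells on day 5, and 75.2 and 66.7 FPKM in shNS cells. On day 7 YME1L1 had 47.6 FPKM with doxycycline and 58.4 FPKM without it in shEXOSC3 cells, and 58.6 and 60.3 FPKM in shNS cells. The shEXOSC3 doxycycline library of day 7 was the lowest of its 8 values. AFG3L2 (chr18:12307668-12377275) had 40.9 FPKM with doxycycline and 53.5 FPKM without it in shEXOSC3 cells on day 5, and 40.2 and 49.6 FPKM on day 7. In shNS cells AFG3L2 had 48.9 and 54.2 FPKM on day 5, and 43.9 and 49.4 FPKM on day 7, with doxycycline and without it. It was lower with doxycycline in all 4 tables, and the shEXOSC3 libraries with doxycycline were at 76.5% and 81.1% of their partners, against 90.2% and 88.9% in shNS.

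Doxycycline was set over no doxycycline as log2((FPKM + 1)/(FPKM + 1)), negative where the doxycycline library is lower, which makes differences of weakly expressed genes look smaller. On this scale the shEXOSC3 ratios on day 7 were below 0 for 10 of 10 members, beside 50.6% of all 13149 genes compared. They ran from -0.55 for HSPD1 to -0.08 for DNAJA3, with CLPX at -0.41, HSPE1 at -0.33, AFG3L2 at -0.30, YME1L1 at -0.29, LONP1 at -0.27, CLPP at -0.20, HSPA9 at -0.17 and TRAP1 at -0.08. The members' median was -0.28, and that of all genes was -0.00. The sizes were small: 0 of 10 members differed by 1.5-fold or more, a fold that 8.26% of all genes reached, so the members do not stand apart by that count. The lower quartile of all genes was -0.18, and HSPD1, HSPE1, LONP1, CLPP, CLPX, YME1L1 and AFG3L2 were below it. The summed pluripotency markers on that day were 2798 FPKM with doxycycline and 3502 FPKM without it in shEXOSC3 cells, and 2986 and 3432 FPKM in shNS cells, and their part in the result was not tested.

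On day 5 the shEXOSC3 ratios were mixed. They were below 0 for 6 of 10 members, beside 48.2% of all genes, with a median of -0.11 against 0 over all genes. AFG3L2 at -0.38 and HSPE1 at -0.35 were the lowest, and LONP1 at 0.13 was the highest. A 1.5-fold difference was reached by 0 of 10 members and by 7.09% of all genes. The members above 0 in shEXOSC3 on day 5 were HSPA9, DNAJA3, LONP1 and YME1L1.

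In shNS cells, given doxycycline with a non-silencing hairpin, 5 of 10 members were below 0 on day 5, beside 45.9% of all genes. Their median was -0.05 against 0.01 over all genes, with HSPA9 highest at 0.27 and TRAP1 lowest at -0.18. That median turned to 0.05, with 3 of 8 members below 0, when HSPD1 and HSPE1 were left out of every table, and was -0.13, with 7 of 10 below 0, by the transcript of highest mean. On day 7, 7 of 8 members with an estimate were below 0, beside 50.2% of all genes. The values lay close to 0: the median was -0.04 against -0.00 over all genes, and the lowest was TRAP1 at -0.19. With ratios centred on the median of all genes, 6 of 8 were below 0, since CLPX was then above it. A 1.5-fold difference was reached by 0 of 10 members and 3.04% of all genes on day 5, and by 0 of 8 members and 4.47% of all genes on day 7. HSPD1 and HSPE1 are missing from the day 7 count, and their failed values as listed were lower with doxycycline.

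**Figure D2:**
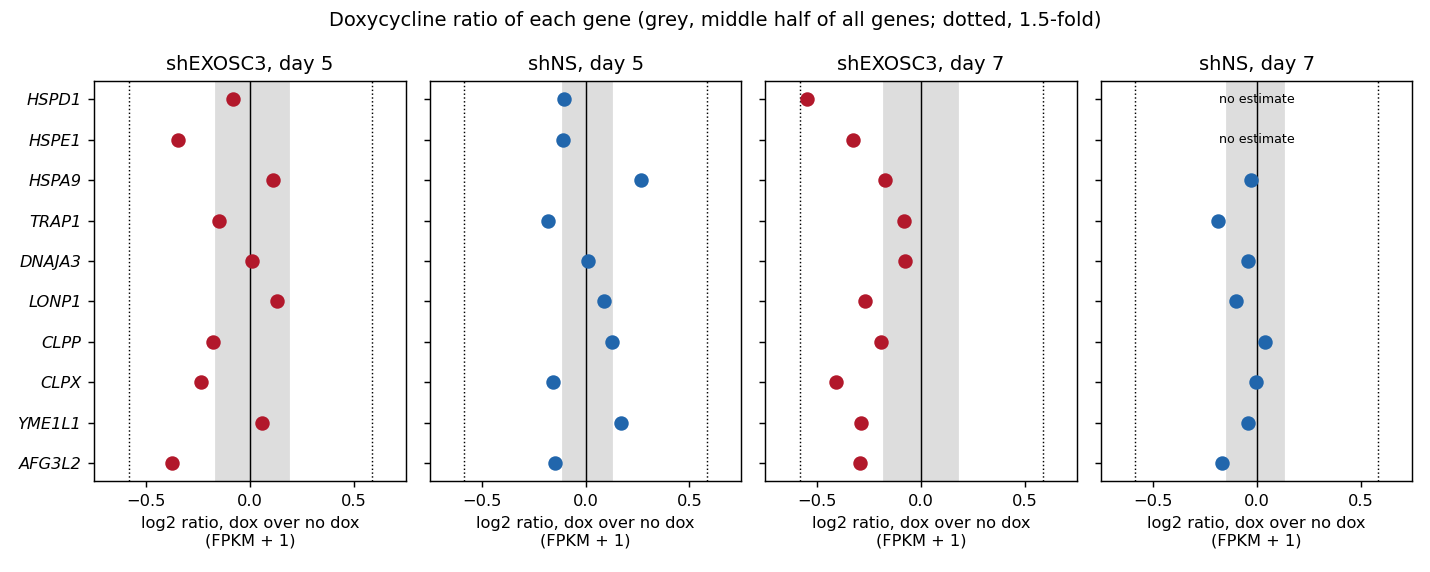
Log2 ratio of doxycycline over no doxycycline for the 10 genes in each table (1 point per gene, grey band from the lower to the upper quartile of all genes, dotted lines at 1.5-fold). All 10 points lie left of 0 in shEXOSC3 on day 7, from -0.55 to -0.08, and no point passes 1.5-fold in any table.

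The shNS ratio was then taken from the shEXOSC3 ratio of the same day. This difference was below 0 for 7 of 10 members on day 5, beside 50.1% of all genes, and for 7 of 8 on day 7, beside 51.4% of all genes. The medians were -0.09 on day 5 and -0.16 on day 7, against -0.00 and -0.01 over all genes. With a minimum mean of 5 FPKM, the day 5 median of all genes was -0.05, nearer to that of the members, which stayed at -0.09. A difference of 1.5-fold was reached by 0 members on either day, and by 7.57% of all genes on day 5 and 9.5% on day 7. Of the 8 members with an estimate on both days, 6 were below 0 on both, beside 28.9% of all genes. These 6 were HSPA9, DNAJA3, CLPP, CLPX, YME1L1 and AFG3L2. Their differences on days 5 and 7 were -0.31 and -0.23 for CLPP, -0.08 and -0.41 for CLPX, -0.11 and -0.25 for YME1L1, -0.23 and -0.13 for AFG3L2, and -0.16 and -0.15 for HSPA9. DNAJA3 was close to 0, at -0.00 and -0.04, and with ratios centred on the median of all genes its day 5 value was 0.01, which left 6 of 10 members below 0 on that day. TRAP1 was above 0 on both days, at 0.03 and 0.10, and LONP1 was at 0.04 on day 5 and -0.17 on day 7. On day 5 HSPE1 was at -0.24 and HSPD1 at 0.02. No 2 libraries repeat a group, so how far values of this size differ between cultures of 1 group is not known, and the 10 genes were not tested as a set.

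For HSPD1, the 3 genes with the most alike ratios among 4204 genes of mean 20 FPKM or more were CCDC12, DKC1 and BMS1, by Euclidean distance over the 3 tables with an estimate (0.07, 0.07 and 0.08 on the log2 scale). In shEXOSC3 on day 7 their ratios were -0.54, -0.48 and -0.50. Among the other members CLPX came nearest, at rank 96. HSPE1, which shares the promoter, was at rank 532, its ratio being -0.35 in shEXOSC3 on day 5 where that of HSPD1 was -0.08.

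For several members the level differed more between days than with doxycycline. The tables were made separately and the 3 most abundant transcripts took 23.8% to 27.6% of FPKM on day 5 but 6.21% to 7.16% on day 7, so a level set across days also carries that shift, and its part was not tested. The log2 ratio of day 7 over day 5 had a median over all genes of -0.07 in shEXOSC3 with doxycycline, -0.08 without it, -0.09 in shNS with doxycycline and -0.09 without it. All genes were widely spread on this scale, with lower quartiles of -0.65 to -0.61 and upper quartiles of 0.37 to 0.43. Their 5% points were -1.60 to -1.52 and their 95% points 1.19 to 1.39. Every member value lay inside these, so the members do not stand apart from all genes by day. CLPP was at -1.10, -1.08, -1.16 and -1.08 in the same order of libraries, and DNAJA3 at -0.86, -0.77, -0.88 and -0.83. Both were thus lower on day 7 in all 4 pairs. HSPA9 was higher on day 7, at 0.48, 0.77, 0.44 and 0.74, and HSPE1 was at 0.97 with doxycycline and 0.95 without it in shEXOSC3. The CLPX-CLPP partners lay on opposite sides of 0, CLPX being at 0.17, 0.35, 0.39 and 0.24. TRAP1 was at -0.42, -0.49, -0.41 and -0.41, while AFG3L2 stayed between -0.15 and -0.03. On FPKM, which is per length and can be set across genes, HSPD1 had the highest level of the 10 in every library of day 5 and HSPA9 in every library of day 7. The lowest levels on day 5 were those of DNAJA3 in every library, and on day 7 those of DNAJA3 and CLPP, at 16.8 to 17.7 FPKM for DNAJA3 and 17.2 to 19.8 FPKM for CLPP.

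Of the members, 5 have several RefSeq transcripts, and how FPKM was divided among them varied between libraries. HSPD1's transcript NM_199440 took 50.3% of the gene's FPKM with doxycycline and 2.66% without it in shEXOSC3 cells on day 5, and 36.7% and 32.1% in shNS cells. On day 7 it took 0.227% with doxycycline and 0.00882% without it in shEXOSC3 cells. The gene's total differed by 5.41% on day 5 in shEXOSC3, so the shares differed far more than the total. On day 7 TRAP1's transcript NM_001272049 took 36.9% with doxycycline and 17.1% without it in shEXOSC3 cells, and 31.1% and 0.0771% in shNS cells. It took at most 0.790% on day 5. DNAJA3's transcript NM_001135110 took 78.5% to 83.8% on day 5. On day 7 it took 41.1% and 55.6% in shEXOSC3, and 66.3% and 49.7% in shNS, with doxycycline and without it. For LONP1, 61.1% to 94.6% was given to NR_076392, which RefSeq names as non-coding. YME1L1's transcript NM_014263 took 77.2% to 98.4%. Summing over transcripts was set by the rule for the comparisons and did not follow from these shares. With the transcript of highest mean in place of the sum, HSPD1 was at -1.04 in shEXOSC3 on day 5, TRAP1 at -0.71 in shNS on day 7 and DNAJA3 at -0.80 in the difference on day 7, each past 1.5-fold. By that measure 9 of 10 members, not 10, were below 0 in shEXOSC3 on day 7. In the authors' deposited tables, 64 tests of member transcripts had a valid status. The authors' deposited p-value was 0.0248 for NM_002156 of HSPD1 in shEXOSC3 on day 5 and 0.0121 for NM_016292 of TRAP1 in shNS on day 7, and these 2 were the tests with a p under 0.05. The lowest q of a member transcript in the authors' deposited tables was 0.547, and 0 were marked significant.

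**Figure D3:**
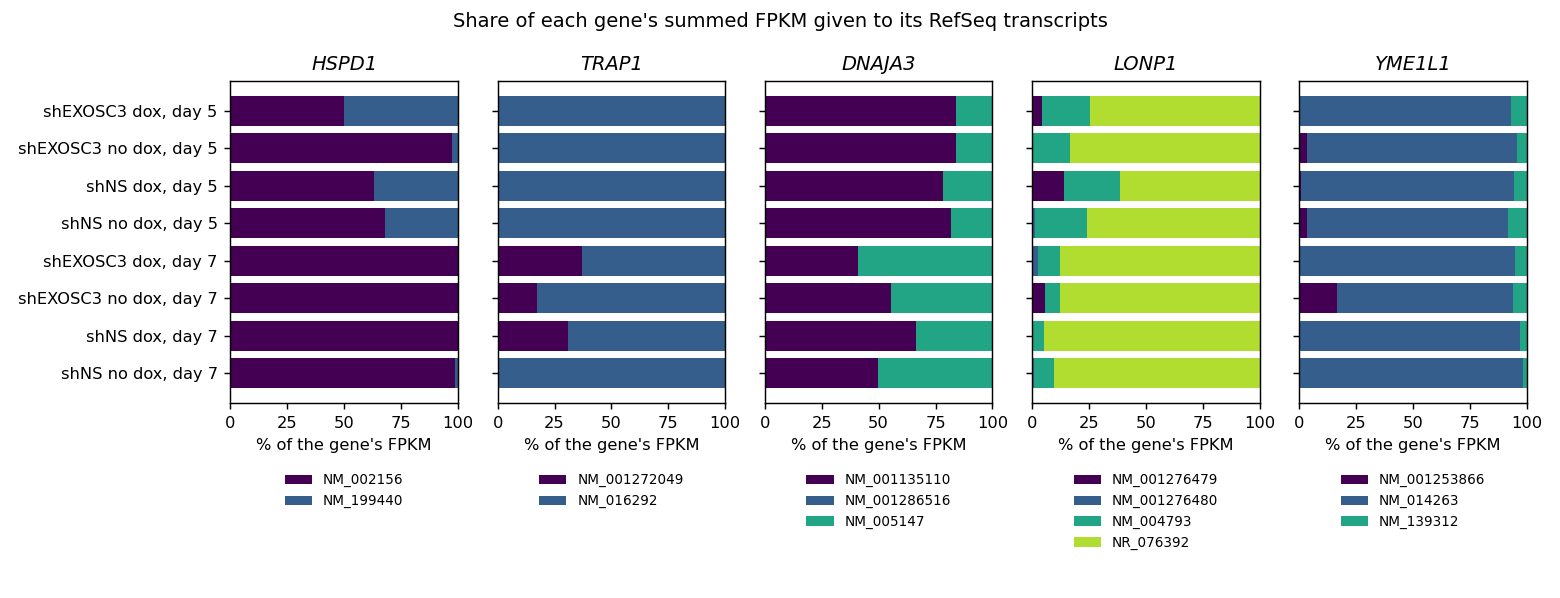
Share of each gene's FPKM, in percent, given to each RefSeq transcript in the 8 libraries, for the 5 members with several transcripts (bars are stacked to the whole of the gene, and both shNS bars of HSPD1 on day 7 are failed estimates). The HSPD1 transcript NM_199440 takes 50.3% in shEXOSC3 with doxycycline and 2.66% without it on day 5.

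Other genes of mitochondrial protein handling were read in 3 lists. Of 11 co-chaperones and assembly chaperones, 8 were below 0 in shEXOSC3 on day 5 and 7 on day 7, beside 48.2% and 50.6% of all genes. The difference from shNS was below 0 on both days for 5 of 11 co-chaperones, 4 of 13 other proteases and peptidases and 8 of 23 import translocases, beside 28.9% of all genes, a share to which the proteases and translocases were close. On day 5 the difference was below 0 for 11 of 11, 10 of 13 and 21 of 23 genes of these lists, beside 50.1% of all genes. Its medians on day 5 were -0.20, -0.19 and -0.22, lower than the -0.09 of the 10 members. On day 7 the medians of the difference were 0.08, 0.02 and 0.04, higher than the -0.16 of the 8 members with an estimate, so the order was not the same on both days. The only genes of these lists past 1.5-fold in the difference on any day were HSCB and CHCHD4. HSCB, the co-chaperone of iron-sulfur cluster assembly, was at -0.26 on day 5 and 0.90 on day 7. CHCHD4, which drives oxidative import into the intermembrane space, was at -0.65 on day 5 and 0.12 on day 7. BCS1L, which assembles complex III, was at -0.10 and 0.10. The lowest co-chaperones by the mean of the days were DNAJC19, at -0.54 and 0.13, and the disaggregase CLPB, at -0.11 and -0.27.

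Among the other proteases, PMPCA, a subunit of the mitochondrial processing peptidase, was at 0.29 on day 5 and 0.17 on day 7. The aminopeptidase XPNPEP3 was at -0.02 and 0.50. IMMP2L, an inner membrane peptidase, was at -0.26 and -0.29. ATP23, a metalloprotease named for its role in ATP synthase assembly in yeast, was at -0.31 and -0.10. Among import genes TIMM8A, a small chaperone of the intermembrane space, was at 0.46 and 0.33, TOMM34, a cytosolic co-chaperone of precursors, at 0.02 and 0.39, and TOMM5, a small subunit of the outer membrane pore, at -0.57 and 0.07. The difference was above 0 on both days for 0 of 11 co-chaperones, 2 of 13 other proteases and 2 of 23 import genes. The share of all genes above 0 on both days was not computed, so these counts have nothing to be set against.

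The list of regulators and targets of the mitochondrial and integrated stress responses had higher medians with doxycycline than the other lists drawn, in both lines. Of 12 genes 11 were measured, since FGF21 was below the minimum. The list's median ratio was 0.74 in shEXOSC3 on day 5 and 0.76 on day 7, and 0.56 and 0.78 in shNS. EIF2AK1, HSF1 and DELE1, also on the list, stayed under 1.5-fold in both lines on both days. In shEXOSC3 their ratios on days 5 and 7 were 0.01 and -0.05, 0.55 and 0.08, and 0.08 and 0.24. In shNS they were -0.31 and -0.08, -0.05 and 0.11, and -0.16 and 0.04. Of the 11, 6 were above 0 in all 4 tables, beside 12.8% of all genes, and 4 were at least 1.5-fold higher in all 4, beside 24 of 13116 genes (0.183%). These 4 were ATF5, DDIT3, the pseudokinase TRIB3 and the asparagine synthetase ASNS, all on the list as drawn up. That list was drawn up with earlier results of these data known, so its counts beside those of all genes are a description only. TRIB3, ASNS, EIF2AK1, HSF1 and DELE1, like CHAC1 below, fall outside the rule for the genes named in the text and are singled out for their values. The 10 chaperones and proteases held 0 such genes of 8, and 3 of 8 were below 0 in all 4 tables, beside 12.4% of all genes. ATF5 had 9.67 FPKM with doxycycline and 1.91 FPKM without it in shEXOSC3 on day 5, and 11.5 and 3.09 FPKM on day 7. In shNS cells ATF5 had 5.14 and 2.18 FPKM on day 5, and 7.36 and 3.19 FPKM on day 7, with doxycycline and without it. It was higher with doxycycline in all 4 tables, and its ratio in shEXOSC3 exceeded that in shNS by 0.92 on day 5 and 0.62 on day 7.

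DDIT3, the stress factor CHOP, had 22.9 FPKM with doxycycline and 12.1 FPKM without it in shEXOSC3 on day 5, and 43.8 and 22.6 FPKM on day 7. In shNS it had 24.8 and 12.2 FPKM on day 5, and 41.4 and 20.6 FPKM on day 7, with doxycycline and without it. DDIT3 was thus higher with doxycycline in both lines, and its shEXOSC3 ratio minus its shNS ratio was -0.09 on day 5 and -0.05 on day 7. GDF15, a secreted stress cytokine, had 20.9 FPKM with doxycycline and 11.5 FPKM without it in shEXOSC3 on day 5, and 16.9 and 12.7 FPKM on day 7. In shNS it had 10.2 and 8.83 FPKM on day 5, and 6.49 and 8.72 FPKM on day 7, with doxycycline and without it. GDF15 exceeded the shNS ratio by 0.62 and 0.76, and ATF5 and GDF15 were the genes of this list past 1.5-fold in the difference on both days. ATF4 itself, which is mainly controlled at translation, had a ratio in shEXOSC3 of -0.14 on day 5 and 0.11 on day 7, and in shNS of 0.24 and -0.00. CHAC1, a target of that pathway, was 1 of 2 stress genes out of 10 with a promoter window that held the C/EBP-ATF core, within chr15:40953251-40953280 on the plus strand.
CHAC1: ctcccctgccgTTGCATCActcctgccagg
Capitals mark the core, read on the other strand. The CHAC1 ratio in shEXOSC3 was 0.76 on day 5 and 0.88 on day 7, and in shNS it was 0.56 and 0.78.

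**Figure D4:**
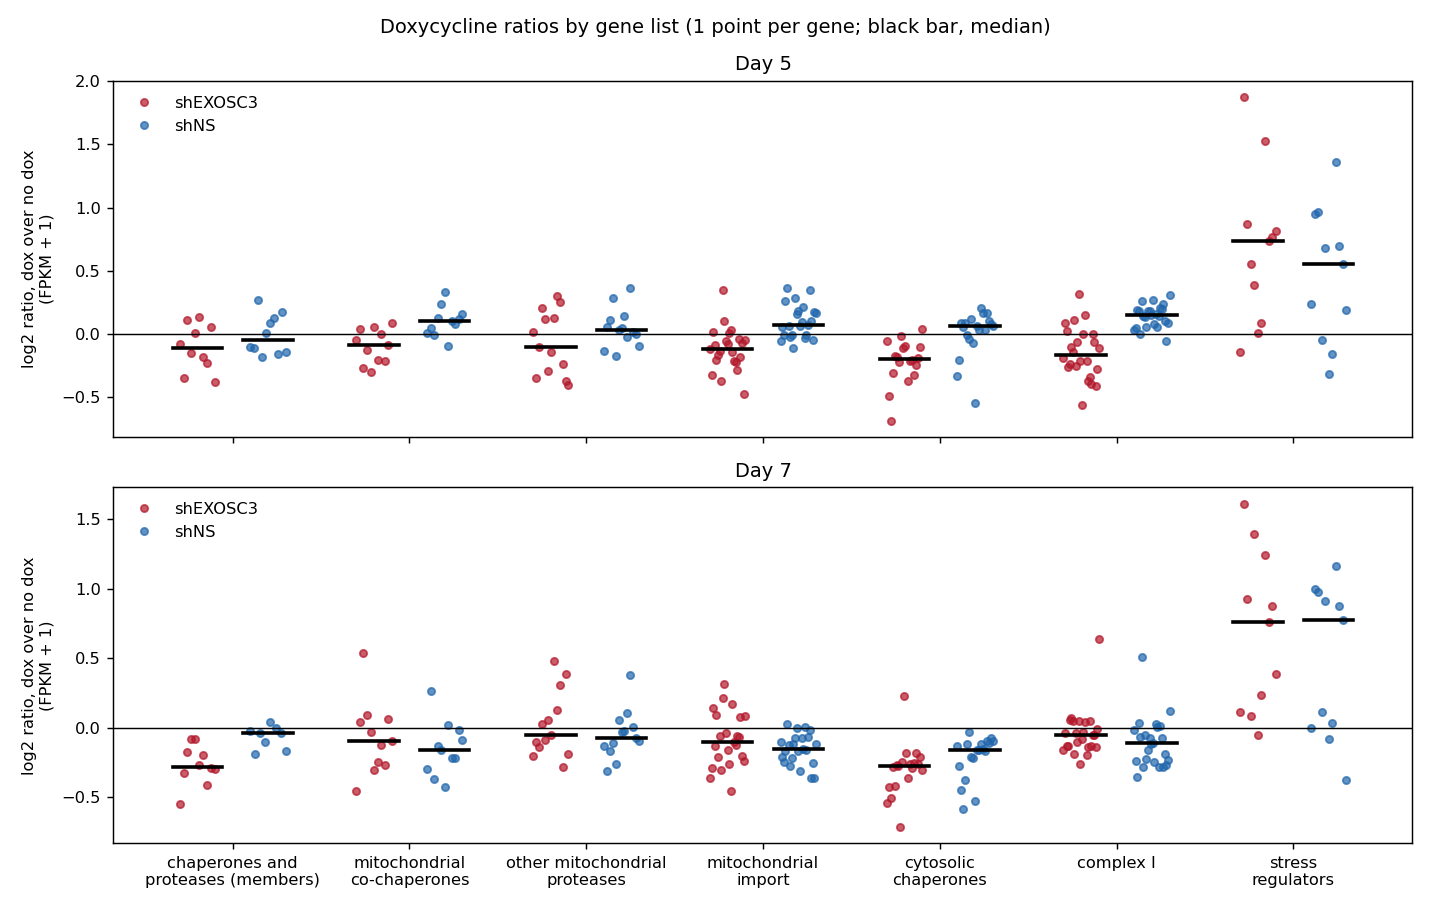
Log2 ratio of doxycycline over no doxycycline by gene list on day 5 (top) and day 7 (bottom), 1 point per gene, shEXOSC3 left of shNS, black bars at the medians. The list of stress regulators and targets has medians from 0.56 to 0.78, though not all its genes were higher. The 10 chaperones and proteases have -0.11 and -0.05 on day 5 and -0.28 and -0.04 on day 7 (shEXOSC3, shNS).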

How the data were processed

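Per the labels, total RNA of H1 cells was depleted of ribosomal RNA and made into ScriptSeq v2 libraries. The submitters' processing notes name CASAVA 1.8, TopHat, Cufflinks and hg19. The use of strand in counting was not given in the sources used here. The authors deposited 4 tables, each with the FPKM of 1 line on 1 day without and with doxycycline for 49235 RefSeq transcripts, with a p-value and a q-value from a test of 1 library against 1 library. Of these transcripts 48147 (97.8%) were matched to a symbol, and FPKM was summed per gene. Ratios, with a pseudocount of 1 FPKM, were formed within tables over genes of mean 1 FPKM or more. A gene with a failed estimate was left out of that table, a choice made after the files had been seen. Called means 1.5-fold or more. Each group is 1 library, and no fit that takes the days, which are time points, as repeats was run. Python 3.11.15, pandas 2.3.3 and numpy 2.4.6 were used, and the steps were tested on simulated data. The members and the lists were chosen with earlier results of these data known. Named were all members, EXOSC3, and in the wider lists the 2 highest and 2 lowest genes by the mean difference of the days and those past 1.5-fold on both. The likeness to HSPD1 was planned over 4 tables and could use 3.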

Additional observations from a re-analysis of the deposited data

Results flagged for a closer look

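For 4 members both lines were higher with doxycycline on day 5 and lower on day 7. The mean log2 ratio of day 7 minus that of day 5 was -0.29 for HSPA9, -0.070 for DNAJA3, -0.29 for LONP1 and -0.28 for YME1L1. The DNAJA3 ratios lay close to 0, at 0.01 on day 5 in both lines, and at -0.08 in shEXOSC3 and -0.04 in shNS on day 7. Among the members and the genes named by rule from the wider lists, the lines lay on opposite sides of 0 on both days for 4 genes. Those from the wider lists had been named for a high or low mean difference between the lines. The remaining genes, in these lists and beyond, were not searched for the pattern. The mean ratio of shEXOSC3 minus that of shNS was -0.27 for CLPP, -0.27 for IMMP2L, 0.20 for TOMM34 and 0.39 for TIMM8A. None of these differences was tested, and the shares of all genes with these patterns were not computed.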

How the results depend on the processing

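Of 458 values of single members recomputed under other settings, 447 moved by less than a tolerance and 11 moved by more. The tolerance was 0.12 to 0.20 on the log2 scale, set for each comparison from the interquartile range of all genes because there are no replicates. Of these 11, 10 came from taking the transcript with the highest mean in place of the sum. With that transcript the count of members past 1.5-fold became 1 of 10 in shEXOSC3 on day 5 (HSPD1 at -1.04), beside 13.2% of all genes by that measure. In shNS on day 7 it became 1 of 8 (TRAP1 at -0.71), beside 12.9% of all genes. In the difference it became 1 on day 5 (HSPD1 at -0.84) and 1 on day 7 (DNAJA3 at -0.80), for which the share of all genes is not given here. YME1L1 in shEXOSC3 on day 7 was at 0.00. The other, HSPD1 in the difference on day 5, was -0.30 when the doxycycline libraries were compared across tables. With a smaller fold, the one listed as an alternative, the counts were 2 of 10 in shEXOSC3 on day 5 (24.9% of all genes), 3 of 10 on day 7 (25.4%) and 1 of 8 in the difference on day 7 (26.2%). The medians moved by less than the tolerance under every setting run, but by over 1.5 times in these: with HSPD1 and HSPE1 left out of every table, -0.07 in shEXOSC3 and 0.05 in shNS on day 5, with failed values as listed, -0.07 in shNS on day 7, and with the transcript of highest mean, -0.13 in shNS and -0.17 in the difference on day 5. The settings for failed estimates were added after the data had been seen. No paired analysis was possible because each group has 1 library and so no replicate numbers to pair by, and leaving out a library would leave its group empty. Read depth is unknown, so counting error is not given.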

Other observations

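The cytosolic heat shock chaperones, which fold proteins outside mitochondria, were also lower with doxycycline in shEXOSC3 cells. Of those measured, 17 of 18 were below 0 on day 5 and 18 of 19 on day 7, beside 48.2% and 50.6% of all genes, with medians of -0.20 and -0.28. In shNS cells 6 of 19 were below 0 on day 5 and 19 of 19 on day 7, beside 45.9% and 50.2% of all genes, with medians of 0.06 and -0.16. The difference of the lines was below 0 on both days for 14 of 18, beside 28.9% of all genes. HSPA1A, an inducible Hsp70, had the lowest difference on day 5, at -0.74, and the small heat shock protein HSPB1 the highest on both days, at 0.44 and 0.75. HSPA1A has a near-identical neighbouring copy, so its value is uncertain.

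The nuclear subunits of respiratory complex I, whose assembly needs matrix chaperones, were below 0 in shEXOSC3 for 18 of 24 on day 5 and 17 of 24 on day 7, beside 48.2% and 50.6% of all genes, with medians of -0.16 and -0.05. In shNS 2 of 24 were below 0 on day 5 and 18 of 24 on day 7, beside 45.9% and 50.2% of all genes, with medians of 0.15 and -0.11. The difference of the lines was below 0 for 22 of 24 on day 5, with a median of -0.28, and for 7 of 24 on day 7, with a median of 0.12, beside 50.1% and 51.4% of all genes. The lowest on day 5 was NDUFA6 at -0.84 and the highest on day 7 was NDUFC2 at 0.52.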
